A study of Homo sapiens with 9 samples.

Results

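The G1/S control genes of MDA-MB-231 cells described here are 10 genes that decide when a cell leaves G1 and starts DNA replication. They are the E-type cyclins CCNE1 and CCNE2, their kinase CDK2 and its inhibitor CDKN1B, the A-type cyclin CCNA2, the transcription factor E2F1, the retinoblastoma gene RB1, the D-type cyclins CCND1 and CCND3, and their kinase CDK6. They were picked by gene symbol for their place in the pathway, with earlier results of these data known. All 10 were found among the 61155 gene symbols of the tables and among the 17759 genes tested. MDA-MB-231 is an established human cell line of basal-like breast cancer. RNA was sequenced from cells that kept FBXL12 and had received a scrambled control guide RNA (WT), and from 2 clones, KO1 and KO2, in which FBXL12 was knocked out; each of these 3 groups gave 3 libraries. FBXL12 encodes an F-box protein, the substrate-binding part of an SCF ubiquitin ligase, and the series title links it to the degradation of FANCD2 and to survival under replication stress. A knockout clone descends from a single cell, so each clone is 1 sample of the genotype, and the labels do not say whether the libraries of a group came from separate cultures. The p-values therefore rest on the spread among these libraries alone, and that spread may be technical.

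In G1, D-type cyclins switch on CDK4 and CDK6, which begin to phosphorylate the retinoblastoma protein. The phosphorylated protein lets go of E2F factors, and these activate the genes of cyclin E, cyclin A, E2F1 itself and the replication machinery. Cyclin E with CDK2 completes the phosphorylation and fires replication origins, while p27, the product of CDKN1B, holds CDK2 back. Too much cyclin E is a classical source of replication stress in cancer cells. Cyclin E and p27 proteins are themselves removed by SCF ligases, and mRNA levels do not show that step.

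Library totals ran from 52427841 to 97243363 counts. The lowest count of any of the 10 genes in any library was 594, for CCNE1. Levels are given as CPM, counts scaled by the TMM-adjusted library total as by edgeR's cpm function, with the SD over 3 libraries, and changes as log2 fold changes with their standard error. A gene was called changed at an adjusted p under 0.05, with Benjamini-Hochberg adjustment over all tested genes, from edgeR's quasi-likelihood test, which gave every adjusted p below unless another is named. The targeted gene FBXL12 was at 22.3 ± 0.999 CPM in WT, 9.64 ± 0.282 in KO1 and 5.94 ± 0.542 in KO2 (SD, n = 3). Genes around FBXL12 were lower too. Its 20 nearest tested protein-coding genes had a median log2 change of -0.45 in KO1, with 17 below 0. In KO2 their median was -0.83, with 15 below 0. With the GC trend of each library removed, these medians were -0.33 and -0.65. They were smaller with 10 neighbours in place of 20 and no removal of the trend. These 10 had a median of -0.29 in KO1, with 9 below 0, and of -0.39 in KO2, with 6 below 0. The part of the neighbourhood in the lower FBXL12 level was not tested. Of the markers of this line and of basal-like cells, VIM, CD44, EGFR and FN1 were high in every group. The basal keratins KRT5, KRT14 and KRT17 had group means of at most 0.158 CPM. The luminal markers ESR1, PGR and CDH1 were at or near 0. All 9 luminal markers summed to 295 to 331 CPM in WT, 230 to 279 in KO1 and 253 to 290 in KO2, mostly from KRT19 (220, 172 and 201 CPM) and ERBB2 (75.5, 63.3 and 61.3). Of 6 tested, 4 fell in KO2, where 49.4% of all tested genes were called. The 10 markers of this line and of basal-like cells summed to 5348 to 5748 CPM in WT, 5616 to 5723 in KO1 and 7100 to 7148 in KO2. Of 7 tested, 4 rose and 1 fell in KO2. The part of these shifts in the results was not tested. The 10 leukocyte markers summed to between 1.12 and 2.36 CPM. KO2 stood apart on the first principal component, which held 53.0% of the variance, and its mitochondrial transcripts made up 4.49% to 5.39% of counts against 3.28% to 3.97% in WT and KO1.

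Promoter sequences from RefSeq (GRCh38.p14) were found for 7 of the 10 genes, and those of CCNE1, E2F1 and CCNA2 are shown because these genes of the cyclin E, E2F and cyclin A arm were each lower in KO1 than in KO2. Each line gives the 250 bases before the RefSeq start site, 5′ to 3′ on the gene's strand. GENCODE places each of these starts further upstream, so the last printed bases lie inside the gene spans given below. Capitals mark GC boxes in CCNE1, E2F words in E2F1, and CHR and CRE words in CCNA2.
CCNE1, chr19:29811741-29811990, plus strand: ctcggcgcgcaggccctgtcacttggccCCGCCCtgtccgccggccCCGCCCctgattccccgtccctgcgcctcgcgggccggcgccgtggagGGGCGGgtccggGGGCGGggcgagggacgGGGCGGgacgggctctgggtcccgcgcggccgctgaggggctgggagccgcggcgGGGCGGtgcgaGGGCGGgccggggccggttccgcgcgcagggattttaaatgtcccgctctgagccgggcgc
E2F1, chr20:33686386-33686635, minus strand: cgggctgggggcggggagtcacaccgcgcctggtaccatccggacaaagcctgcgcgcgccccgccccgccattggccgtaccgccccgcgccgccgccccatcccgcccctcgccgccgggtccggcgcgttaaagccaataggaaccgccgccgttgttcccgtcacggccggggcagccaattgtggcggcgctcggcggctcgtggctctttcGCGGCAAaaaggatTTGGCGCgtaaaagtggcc
CCNA2, chr4:121823884-121824133, minus strand: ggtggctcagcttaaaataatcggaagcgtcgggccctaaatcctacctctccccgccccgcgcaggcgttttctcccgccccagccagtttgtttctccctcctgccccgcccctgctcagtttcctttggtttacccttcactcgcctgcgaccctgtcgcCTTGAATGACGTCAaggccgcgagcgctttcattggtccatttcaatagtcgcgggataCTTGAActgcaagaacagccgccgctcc
The words searched, on both strands, were TTCCCGC for E2F, with its variants TTCGCGC, as well as TTGGCGC, and also TTGCCGC, then TTTGAA and CTTGAA for CHR (an element of genes expressed in G2 and mitosis), TGACGTCA for CRE (bound by CREB and ATF factors), and GGGCGG for the GC box (bound by SP factors). None of these words overlaps another in the printed sequences, and the CRE of CCNA2 follows directly on a CHR word. Over all 35116 RefSeq windows of 300 bases, which also take in 50 bases after the start, an E2F word was found in 13.0%, a CHR word in 23.9%, a CRE word in 1.85% and a GC box in 45.0%. In the 16307 windows of tested genes these shares were 18.4%, 17.6%, 2.66% and 63.9%. Among the 7 matched genes an E2F word occurred in E2F1 alone, with first bases at -33 and -19 from the start, and CHR and CRE words in CCNA2 alone, at -87, -81 and -28. CCNE1 held 7 GC boxes, between -222 and -61. A match is a description of letters, and no binding was measured.

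CCNE1 mRNA was higher in KO2 and about level with WT in KO1, and its partner gene CCNE2 passed the threshold in neither clone. CCNE1 (ENSG00000105173.13, chr19:29811898-29824308, plus strand, GRCh38, GENCODE release 29, as for all gene positions below) encodes cyclin E1. It stood at 9.14, 10.2 and 9.44 CPM in the WT libraries, 10.2, 9.77 and 10.9 in KO1, with 17.6, 15.6 and 16.1 in KO2. All 3 KO2 libraries lay above every other library, whereas KO1 and WT overlapped. The means were 9.58 ± 0.520, 10.3 ± 0.582 and 16.4 ± 1.07 CPM (SD, n = 3). CCNE1 rose 1.72-fold in KO2, a log2 change of 0.78 ± 0.08 (95% interval 0.61 to 0.95, adjusted p = 9.2e-07). In KO1 its log2 change was 0.11 ± 0.08 (interval -0.06 to 0.28, adjusted p = 0.32). The clones differed by -0.67 ± 0.08 for KO1 minus KO2 (adjusted p = 3.1e-06), so the average of 0.44 ± 0.07 over both clones (adjusted p = 0.000134) describes neither clone. The 20 nearest tested protein-coding genes had a median log2 change of 0.12 in KO2, with 15 of 20 above 0, and of 0.02 in KO1. In bulk RNA, a higher share of cells that carry a transcript and more transcript per cell cannot be told apart.

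**Figure D1:**
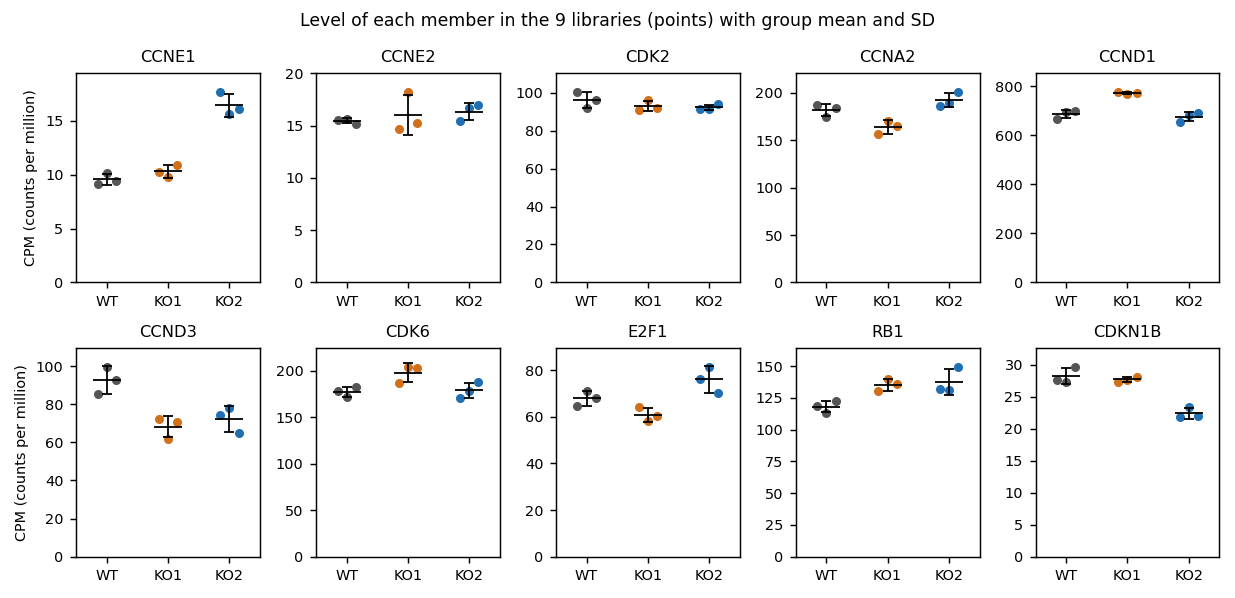
CPM (scaled counts, linear axis from 0) of the 10 genes in each of the 9 libraries; points are libraries, the horizontal bar is the group mean and the error bar the SD (n = 3). CCNE1 was between 15.6 and 17.6 in KO2 and at most 10.9 elsewhere, and CCND3 was lower in every library of both clones than in WT.

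CCNE2 (ENSG00000175305.17, chr8:94879770-94896678, minus strand) encodes cyclin E2, which also activates CDK2. Its libraries ran from 15.2 to 15.6 CPM in WT, from 14.7 to 18.2 in KO1 and from 15.4 to 16.9 in KO2, and all 3 groups overlapped. Its log2 change was 0.05 for KO1 (interval -0.12 to 0.22, adjusted p = 0.659) and 0.08 for KO2 (interval -0.09 to 0.25, adjusted p = 0.448), so a change as large as that of CCNE1 in KO2 lay outside both intervals. CCNE2 shares part of its span with INTS8 (35.5 CPM) and NDUFAF6 (15.7 CPM) on the opposite strand, and the strand setting of the counting was not stated. Per length, as RPKM (CPM divided by the exon length in kilobases), the level of CCNE1 was 1.07 ± 0.05 times that of CCNE2 in WT, 1.12 ± 0.17 times in KO1 and 1.74 ± 0.20 times in KO2 (SD, n = 3). Each KO2 library lay between 1.61 and 1.97, above the 0.926 to 1.24 of the other 6.

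CDK2 (ENSG00000123374.10, chr12:55966769-55972784, plus strand), the kinase of cyclin E and cyclin A, showed no change past the threshold. Its libraries were at 100.2, 92.0 and 95.9 CPM in WT, 90.8, 95.9 and 91.8 in KO1, with 91.5, 91.3 and 93.9 in KO2. KO1 stood at a log2 change of -0.05 (interval -0.14 to 0.04, adjusted p = 0.417) and KO2 at -0.06 (interval -0.15 to 0.04, adjusted p = 0.293). PMEL, which spans CDK2 on the opposite strand, was at 2.32 CPM.

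CDKN1B, the gene of the CDK2 inhibitor p27, fell in KO2 and was level in KO1. CDKN1B (ENSG00000111276.10, chr12:12715058-12722371, plus strand) was at 27.7, 27.4 and 29.7 CPM in WT, 27.3, 27.6 and 28.2 in KO1, with 21.8, 23.4 and 22.0 in KO2. Every KO2 library lay below the other 6, and KO1 overlapped WT. The log2 change was -0.33 ± 0.06 in KO2 (adjusted p = 0.000175), to 0.793 of the WT level, and -0.03 ± 0.06 in KO1 (interval -0.15 to 0.09, adjusted p = 0.738). The clones differed by 0.31 ± 0.06 (adjusted p = 0.000339). The 20 neighbours had a median of 0.11 in KO2, the opposite sign. Over both clones the average was -0.18 ± 0.05 (adjusted p = 0.00793), and this call was lost without WT replicate 3 (-0.14, adjusted p = 0.0781).
In KO2 the cyclin and its inhibitor thus moved apart at the mRNA level. The ratio of CCNE1 to CDKN1B, per length, was 0.364, 0.409 and 0.350 in the WT libraries, 0.411, 0.390 and 0.428 in those of KO1, and 0.893, 0.734 and 0.806 in those of KO2. The means were 0.374 ± 0.031, 0.410 ± 0.019 and 0.811 ± 0.080 (SD, n = 3).

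CCNE1 was the only 1 of the 10 genes whose group means spanned at least 0.5 on the log2 scale (0.77). Over the 9 libraries and 10032 protein-coding genes whose mean log2 CPM reached 2, the profiles most like it were those of CPS1, with a root mean square difference of 0.055, TRNP1 (0.058) and ACSS2 (0.062); the median over all candidates was 0.38. CPS1, a mitochondrial enzyme of the urea cycle, went from 13.9 CPM in WT and 13.8 in KO1 to 22.6 in KO2. ACSS2, which makes acetyl-CoA from acetate, went from 41.4 and 44.9 to 68.5 CPM, and TRNP1 from 10.0 and 10.3 to 17.7. These 4 genes lie on 4 different chromosomes.

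CCNA2 and E2F1, targets of E2F factors, stood lower in KO1 than in KO2, with WT between them. CCNA2 (ENSG00000145386.9, chr4:121816444-121823933, minus strand) encodes cyclin A2, which takes over CDK2 in S phase. It was at 187, 175 and 183 CPM in WT, 156, 170.1 and 165 in KO1, with 186, 189 and 200.5 in KO2. The KO1 libraries were all below WT, while KO2 overlapped WT. CCNA2 fell by 0.15 ± 0.05 on the log2 scale in KO1 (adjusted p = 0.0183), whereas KO2 stood at 0.08 ± 0.05 (interval -0.02 to 0.18, adjusted p = 0.157). The difference between the clones, -0.23 ± 0.05, passed the test (adjusted p = 0.000564). The KO1 call was lost without WT replicate 1 (-0.11, adjusted p = 0.117), WT replicate 3 (-0.13, 0.0883), KO1 replicate 1 (-0.10, 0.0998) or KO1 replicate 3 (-0.14, 0.0749). EXOSC9 overlaps 578 bases of the CCNA2 span on the other strand and was at 70.8 CPM.

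E2F1 (ENSG00000101412.12, chr20:33675683-33686404, minus strand), the activator whose own promoter carries the pair of E2F words shown above, was at 64.7, 71.0 and 68.0 CPM in WT, 64.2, 58.1 and 60.4 in KO1, with 76.4, 81.6 and 70.2 in KO2. All KO1 libraries lay below WT and all KO2 libraries above KO1, but KO2 and WT overlapped. The log2 change was -0.16 ± 0.06 in KO1, which missed the threshold (adjusted p = 0.0513), and 0.16 ± 0.06 in KO2, which passed it (adjusted p = 0.032). KO1 minus KO2 was -0.32 ± 0.06 (adjusted p = 0.000321).
The sign in KO1 turned when the GC trend of each library was removed. E2F1 transcripts are the most GC-rich of the 10, at 62.5%. The median log2 change of tested genes with 60% to 70% GC was -0.29 for KO1 and -0.33 for KO2, against 0.11 and 0.04 for genes with 30% to 40%. With this trend removed, E2F1 stood at 0.12 in KO1 (adjusted p = 0.0272) and 0.51 in KO2, and the difference between the clones was -0.38. The KO2 call also rested on single libraries: without WT replicate 1 it was 0.13 (adjusted p = 0.122), without WT replicate 3 0.16 (0.0723), without KO2 replicate 1 0.15 (0.092) and without KO2 replicate 2 0.10 (0.197).

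RB1 rose in both clones by a similar amount. RB1 (ENSG00000139687.15, chr13:48303726-48599436, plus strand) encodes the retinoblastoma protein, the repressor that cyclin-dependent kinases inactivate at the G1/S boundary. It was at 119, 113 and 122 CPM in WT, 130.2, 139.9 and 136 in KO1, with 132, 132 and 149.7 in KO2. Every clone library lay above every WT library. The log2 changes were 0.20 ± 0.05 in KO1 (adjusted p = 0.0103) and 0.22 ± 0.05 in KO2 (adjusted p = 0.00303), and the average was 0.21 ± 0.05 (adjusted p = 0.00236). The difference between the clones was -0.03 (interval -0.14 to 0.09, adjusted p = 0.728). The 20 neighbours had medians of 0.08 and 0.02. RB1 transcripts have 37.3% GC, and with the GC trend removed the changes were 0.10 and 0.18. RCBTB2 overlaps 44298 bases of the RB1 span on the other strand and was at 8.49 CPM.

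The D-type cyclins moved in different directions. CCND1 (ENSG00000110092.3, chr11:69641087-69654474, plus strand) encodes cyclin D1, through which growth factor signals reach the cell cycle. It was at 668, 696 and 697 CPM in WT, 775, 766 and 771 in KO1, with 653, 683 and 688 in KO2. The KO1 libraries were all above the others, and KO2 overlapped WT. In KO1 CCND1 rose by 12.2%, a log2 change of 0.17 ± 0.04 (adjusted p = 0.00253), and was at -0.03 ± 0.04 in KO2 (interval -0.10 to 0.05, adjusted p = 0.6). The clones differed by 0.19 ± 0.04 (adjusted p = 0.000435). LTO1 overlaps 1399 bases of its span on the other strand and was at 32.2 CPM.

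CCND3 fell in both clones. CCND3 (ENSG00000112576.12, chr6:41934933-42050357, minus strand) encodes cyclin D3, which binds the same kinases as cyclin D1. It was at 85.3, 99.7 and 92.8 CPM in WT, 72.2, 62.0 and 70.5 in KO1, with 74.4, 77.8 and 64.9 in KO2. No library of either clone reached the lowest WT library. The log2 changes were -0.44 ± 0.08 in KO1 (adjusted p = 0.00121) and -0.36 ± 0.08 in KO2 (adjusted p = 0.00293), which left 0.737 and 0.781 of the WT level. The difference between the clones was -0.08 (interval -0.26 to 0.09, adjusted p = 0.419). The genes around CCND3 were lower too: of its 20 neighbours, 19 were below 0 in KO1 and 18 in KO2, with medians of -0.47 and -0.41. With the GC trend removed, CCND3 stood at -0.32 and -0.24, and its neighbours at -0.37 and -0.35. The part of the neighbourhood in the lower CCND3 level was not tested.
Per length, CCND1 made up 88.5% ± 0.57 of the summed RPKM of CCND1, CCND2 and CCND3 in WT, 92.4% ± 0.49 in KO1 and 90.3% ± 0.71 in KO2 (SD, n = 3). The share of CCND3 was 9.93% ± 0.52, 6.81% ± 0.48 and 8.06% ± 0.79, and no clone library reached the lowest WT library in it. The size of these shares depends on the exon length used. By all exons CCND3 was at 16.0 RPKM in WT and CCND1 at 142, but by the longest transcript they were at 38.7 and 159.5.

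CDK6 (ENSG00000105810.9, chr7:92604921-92836594, minus strand), a kinase of D-type cyclins, rose in KO1. It was at 178, 172 and 182 CPM in WT, 187, 204 and 203 in KO1, with 171, 178 and 188 in KO2. The KO1 libraries lay above WT but overlapped KO2, whose highest library passed the lowest of KO1. The log2 change was 0.16 ± 0.05 in KO1 (adjusted p = 0.0174) and 0.01 ± 0.05 in KO2 (interval -0.09 to 0.11, adjusted p = 0.861), and the clones differed by 0.15 ± 0.05 (adjusted p = 0.0182). The 20 neighbours of CDK6 had a median of 0.18 in KO1, with 15 of 20 above 0, and of 0.03 in KO2, much like CDK6 itself; with the GC trend removed CDK6 stood at 0.07 and its neighbours at 0.11 in KO1. The KO1 call was lost without WT replicate 2 (0.15, adjusted p = 0.0592) or KO1 replicate 3 (0.15, 0.0565), and the difference between the clones without KO1 replicate 3 (0.14, 0.0564) or KO2 replicate 1 (0.13, 0.0741). The level of CDK4, the sister kinase, was 2.97 ± 0.24 times that of CDK6 per length in WT, 2.51 ± 0.14 times in KO1 and 3.13 ± 0.26 times in KO2.

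**Figure D2:**
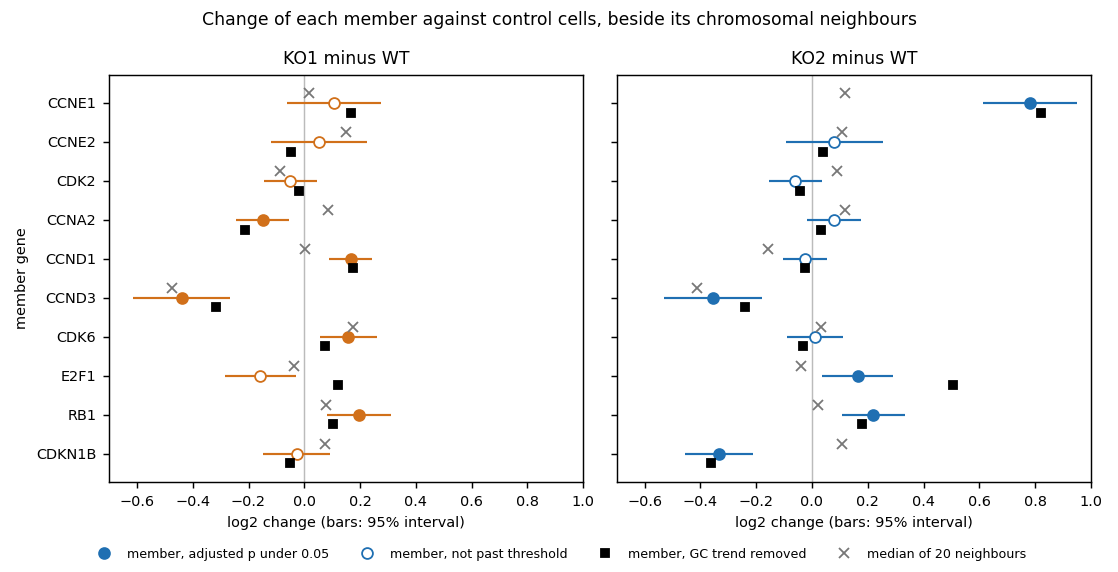
Log2 change of each gene in KO1 and in KO2 against WT; circles are edgeR estimates with 95% intervals, filled where the adjusted p was under 0.05, squares the value with the GC trend removed, and crosses the median of the 20 neighbours. RB1 and CCND3 had filled circles of the same sign in both clones, CCNE1 in KO2 was the widest change at 0.78, and the neighbours of CCND3 lay at -0.47 and -0.41.

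Counted together, 5 of the 10 genes were called in KO1, with CCND1, CDK6 and RB1 higher and CCNA2 and CCND3 lower; of all tested genes 34.8% were called. In KO2 5 were called, with CCNE1, E2F1 and RB1 higher and CCND3 and CDKN1B lower, against 49.4% of all tested genes. The average of both clones gave 4, with CCNE1 and RB1 higher and CCND3 and CDKN1B lower, against 40.8%. Between the clones 6 differed, with CCND1, CDK6 and CDKN1B higher in KO1 and CCNE1, CCNA2 and E2F1 higher in KO2, against 48.9%. Called in the same direction in both clones were RB1 and CCND3, 2 of 10 against 15.1% of all tested genes. The numbers called were thus close to the background. The median absolute log2 change was 0.15 in KO1 and 0.12 in KO2, against 0.21 and 0.29 over all tested genes. Those also include genes of much lower count, whose changes are noisier. The comparison was not matched for level, so it does not show that the 10 genes changed less than others like them. Without KO1 replicate 3, 3 were called in KO1 (2 higher, 1 lower).

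Per length the 10 transcripts covered a wide range, and their order was nearly the same in each group. In WT, CCND1 was the most abundant at 142 ± 3.41 RPKM, followed by CCNA2 at 64.9 ± 2.19, E2F1 at 27.1 ± 1.25 and CDK2 at 24.7 ± 1.05 (SD, n = 3). RB1 at 18.3 ± 0.71, CCND3 at 16.0 ± 1.24 and CDK6 at 14.5 ± 0.43 came next, and the libraries of CCND3 and CDK6 overlapped. CDKN1B at 10.1 ± 0.454, CCNE1 at 3.76 ± 0.204 and CCNE2 at 3.52 ± 0.0555 were the lowest. In KO1 and KO2, CDK6 (16.1 and 14.6) stood above CCND3 (11.8 and 12.5). The order in the middle depends on the exon length used: by the longest transcript in place of all exons, CCND3 was at 38.7 RPKM in WT, above CDK2 at 37.0.

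**Figure D3:**
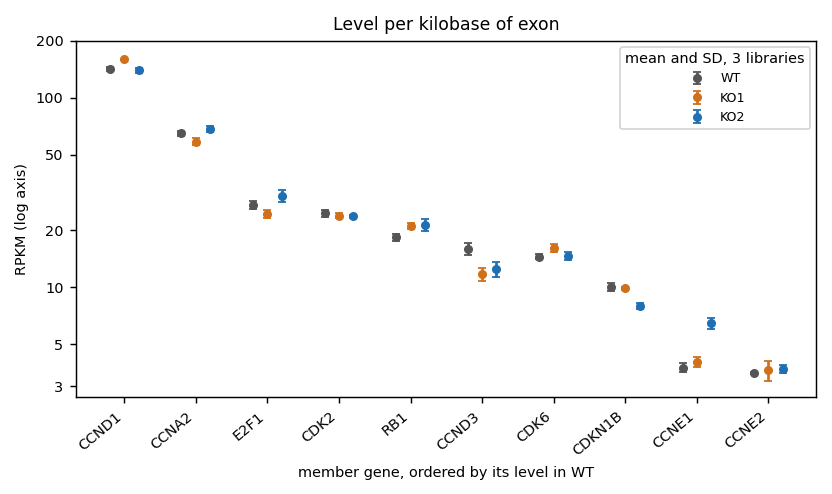
RPKM (log axis) of the 10 genes in WT, KO1 and KO2, ordered by their level in WT; points are group means and bars the SD (n = 3). CCND1 had means of 142, 159.5 and 139.7 in WT, KO1 and KO2, and the E-type cyclins of at most 6.45.

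The wider pathway was followed in 7 lists of 136 genes in all, described by counts beside the medians of all tested genes, which were -0.0049 in KO1 and -0.0077 in KO2. Over all tested genes, 3200 rose and 2978 fell in KO1 (34.8% called), and 4382 rose and 4394 fell in KO2 (49.4% called). Between the clones, 4253 were higher and 4426 lower in KO1 than in KO2 (48.9% called). A list's share called near these is the background. The 20 turnover genes, with 7 and 10 called, lie there. The 36 E2F target genes of S phase, with 23 and 21 not called, lie near it. So do the 14 other cyclins, kinases and phosphatases, with 8 and 8 not called. No list was tested against these shares. Of 14 other cyclins, kinases and phosphatases of G1 and S, none rose and 6 fell in KO1 (median -0.15), and 3 rose and 3 fell in KO2 (median 0.07); 8 were lower in KO1 than in KO2 and none higher. CCND2, the third D-type cyclin, fell in KO1 from 17.6 to 10.3 CPM (log2 change -0.78 ± 0.08, adjusted p = 5.3e-06) and was at 18.2 in KO2. PKMYT1, a kinase that inhibits CDK1, fell in both clones, from 19.1 to 10.1 and 9.91 CPM. CDC25B, a phosphatase that activates such kinases, fell by 0.21 and 0.27 on the log2 scale, but with the GC trend removed both calls were lost (-0.02, adjusted p = 0.73, and -0.05, adjusted p = 0.20). CCNA1, the other A-type cyclin, rose in KO2 from 8.94 to 14.1 CPM (adjusted p = 8.0e-06), and its log2 change in KO1 was -0.10 (adjusted p = 0.39). CDK3 fell in both, at 8 to 53 counts per library; in KO1 its call was lost without WT replicate 1 or 3 or KO1 replicate 3.

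Of 7 other CDK inhibitor genes, 4 were tested. CDKN2A and CDKN2B, which encode p16 and p15, the inhibitors of CDK4 and CDK6, had 0 counts in all 9 libraries, which allows up to 3 counts in a library, and CDKN1C had at most 9. CDKN1A, the gene of p21, rose by 0.16 ± 0.05 in KO1 (adjusted p = 0.0345) and 0.21 ± 0.05 in KO2 (adjusted p = 0.0053). The KO1 call was lost without any of WT replicates 1, 2 and 3 and KO1 replicates 1 and 3 (0.14 to 0.17, adjusted p = 0.0566 to 0.0844). CDKN2C and CDKN2D, of the same family as p16, fell in both clones, CDKN2D from 24.5 to 19.3 and 16.2 CPM. With the GC trend removed, the calls of CDKN2C in KO1 (-0.13, adjusted p = 0.097) and KO2 (-0.02, adjusted p = 0.76) and of CDKN2D in KO1 (-0.10, adjusted p = 0.23) were lost. CDKN3, a phosphatase of CDK2, rose in KO2 from 111 to 174 CPM (log2 change 0.64 ± 0.07, adjusted p = 2.0e-05), and its change in KO1 was -0.19 ± 0.07 (adjusted p = 0.0687; with the GC trend removed -0.24, adjusted p = 0.0439).

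Of 19 other pocket protein, E2F and DREAM genes, 3 rose and 7 fell in KO1 and 5 rose and 6 fell in KO2; without WT replicate 2 or KO1 replicate 3, 1 rose in KO1. RBL2, which encodes p130, the pocket protein of resting cells, rose in KO1 from 31.3 to 42.6 CPM (log2 change 0.44 ± 0.06, adjusted p = 2.4e-05) and fell in KO2 to 19.4 (-0.69 ± 0.06, adjusted p = 1.2e-07). MYBL2, whose product drives late cell cycle genes, fell in KO1 from 128 to 74.9 CPM and was at 128 in KO2, where it was called higher with the GC trend removed (0.28, adjusted p = 4.9e-07). E2F3, an activator, and E2F4, a repressor, fell in both clones, E2F3 from 88.1 to 75.8 and 69.5 CPM; the KO1 call of E2F4 was lost with the GC trend removed (-0.05, adjusted p = 0.16) and without WT replicate 2. The atypical repressors E2F7 and E2F8 rose in KO2, by 0.32 and 0.51 on the log2 scale, and E2F8 fell in KO1 by 0.23.

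Of 20 genes for the turnover of cyclin E, cyclin D and p27, 2 rose and 5 fell in KO1 and 3 rose and 7 fell in KO2. Without WT replicate 2, 3 fell in KO1, without KO1 replicate 1, 5 rose there, and with the GC trend removed 6 rose in KO2. RNF123, a ligase subunit for p27, fell by 0.29 and 0.49, the KO1 call being lost with the GC trend removed (-0.10, adjusted p = 0.097). CDC34, the E2 enzyme of SCF ligases, fell by 0.26 and 0.51, but in KO1 its sign turned with the GC trend removed (0.11) and the KO2 call was lost (-0.03, adjusted p = 0.76); the KO1 call was also lost without WT replicate 2. USP37, a deubiquitinase of cyclin A, rose in KO2 from 27.9 to 43.3 CPM, and CUL3, the scaffold of a cyclin E ligase, from 119 to 162.

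Of 36 E2F target genes of S phase, 1 rose and 12 fell in KO1 (median -0.11), and 6 rose and 9 fell in KO2 (median -0.06). In both clones 4 of the 36 fell and none rose, against 15.1% of all tested genes called in the same direction in both. With the GC trend removed, 21 fell in KO1 and 13 in KO2. Without WT replicate 2 or 3, 6 fell in KO1, without KO1 replicate 3, 7 fell, and without KO1 replicate 1, 5 rose; in KO2, 2 rose without WT replicate 2 or KO2 replicate 3 and 3 without WT replicate 1 or KO2 replicate 1 or 2. MCM7, part of the replicative helicase, fell from 429 to 353 and 386 CPM, though in KO2 its change was 0.01 with the GC trend removed. CHAF1A, a histone chaperone of the replication fork, fell from 60.9 to 53.0 and 43.8 CPM, and CDC45, a helicase cofactor, from 75.2 to 67.1 and 65.9. The KO1 call of CHAF1A was lost with the GC trend removed (-0.04, adjusted p = 0.41) and without WT replicate 2 or 3 or KO1 replicate 2 or 3, and that of CDC45 without WT replicate 1 or 2 or KO1 replicate 3. UNG, which removes uracil from DNA, fell in KO2 from 214 to 157 CPM, and RRM2, a subunit of ribonucleotide reductase, rose there from 435 to 515.

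Of 20 G2 and mitosis genes, 14 rose and 5 fell in KO2 (median 0.20), and 4 rose and 4 fell in KO1 (median 0.05). Between the clones 11 were lower in KO1 than in KO2 and 4 higher, where 48.9% of all tested genes were called. Without KO1 replicate 1, 8 rose in KO1. The list summed to 6824 to 7107 CPM in KO2, against 5762 to 5952 in WT and 5719 to 5939 in KO1. Rising genes included HMMR, a spindle protein, in both clones (36.0, 46.1 and 48.5 CPM), and TOP2A, the mitotic topoisomerase, in KO2 (from 859 to 1132 CPM, adjusted p = 5.3e-06). TPX2, a spindle factor, also rose there, from 649.7 to 809.6 CPM. AURKB, the kinase of the chromosomal passenger complex, fell in both, but the KO2 call was lost with upper quartile scaling (-0.12, adjusted p = 0.065), with the GC trend removed (-0.06, adjusted p = 0.15) and without WT replicate 2 or 3 or KO2 replicate 1 or 3. PTTG1, the securin gene, and KIF11, a spindle motor, went opposite ways, with PTTG1 at 249 CPM in WT, 162 in KO1 and 304 in KO2 and KIF11 at 191, 137 and 262. Summed levels of S-phase targets ran from 5727 to 5852 CPM in WT, 5429 to 5527 in KO1 and 5628 to 5687 in KO2.

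Of 20 regulators upstream of cyclin D1, 7 rose and 3 fell in KO1 and 7 rose and 4 fell in KO2; without KO1 replicate 1, 5 fell in KO1. EGFR, a growth factor receptor, fell in KO1 from 527 to 459 CPM (log2 change -0.20 ± 0.04, adjusted p = 0.00122) and rose in KO2 to 817 (0.63 ± 0.04, adjusted p = 5.0e-09). YAP1, a coactivator of TEAD factors, rose in KO1 from 202 to 271 CPM and was at 189 in KO2 (adjusted p = 0.0827; with the GC trend removed -0.14, adjusted p = 0.000525). Its paralogue WWTR1 rose in both clones, though in KO2 its call was lost without WT replicate 2 (0.11, adjusted p = 0.073), and so did STAT3, from 234 to 264 and 266 CPM. TCF7L2, a factor of the WNT pathway, fell in both.

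**Figure D4:**
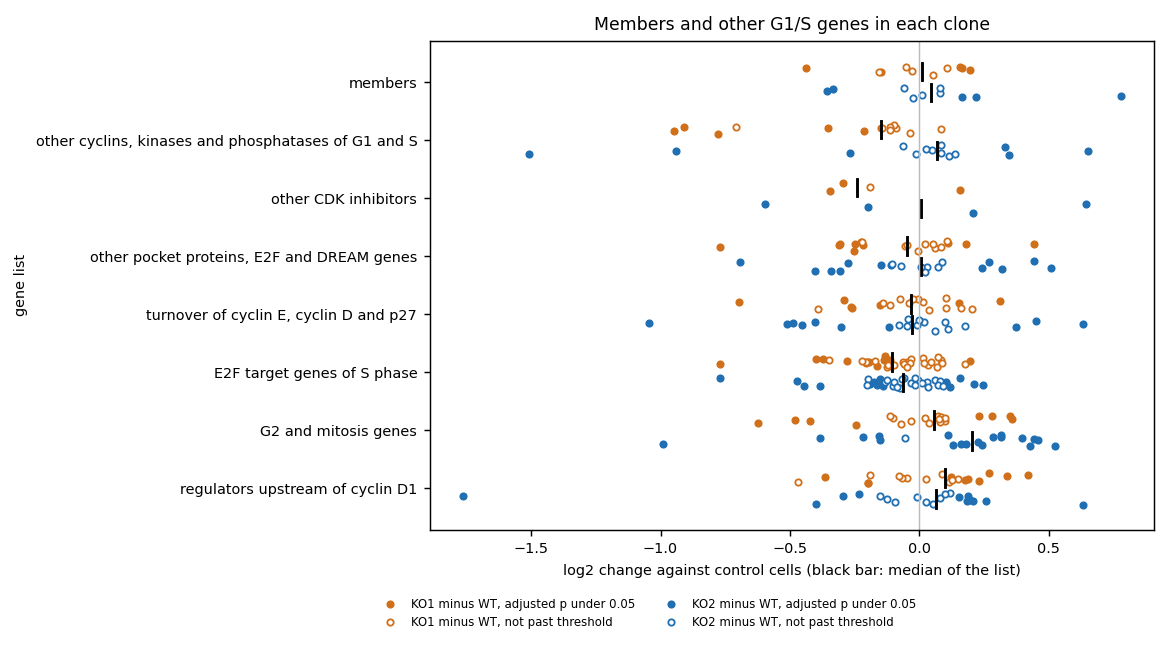
Log2 change against WT of the 10 genes and of the tested genes of 7 pathway lists in KO1 and KO2; each point is a gene, filled where its adjusted p was under 0.05, and the black bar is the median of the list. The G2 and mitosis genes had a median of 0.20 in KO2 and 0.05 in KO1, and the other cyclins and kinases of -0.15 in KO1 and 0.07 in KO2.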

How the data were processed

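Total RNA of 9 libraries was made into Illumina TruSeq libraries, per the labels' protocols. The deposited tables hold raw read counts per gene symbol, 1 table per library, which the authors did not normalise. Trim Galore, HISAT2 and the builds hg38, mm10 and GRCm38 are named, without a role, per the submitters' processing notes. Details not given in the sources used here include the read counter, the annotation, the strand setting and how reads with several matches were treated. Reads of overlapping genes on opposite strands therefore cannot be told apart.

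Counts were filtered with filterByExpr, scaled with TMM and fitted with edgeR 4.0.16 (R 4.3.3) as 1 mean per group over all 9 libraries, with robust quasi-likelihood settings. Contrasts were each clone minus WT, their average minus WT, and KO1 minus KO2, which tests whether the clones differ. DESeq2 1.42.0, limma 3.58.1 (voom), other scalings and filters, a replicate block, removal of each library's GC trend (lowess, span 0.3) and leaving out each library were alternatives, 19 in all. Exon lengths, GC content and positions came from GENCODE release 29, which held 55878 of the symbols. Scripts were tested on simulated data. Replicate libraries differed by more than sampling noise, with a chi-square of 5.85 to 28.7 per degree of freedom.

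The genes and lists were chosen with earlier results of these data known. In each list the text names up to 4 genes with the smallest p in the average of both clones and up to 2 with the smallest p between the clones; some genes that this rule names are not reported here. Listed genes at or near 0 are also named where they define the pathway. CDK4 and CDKN1C were named after their values were seen. The 4 marker lists hold genes of this line and basal-like cells, of luminal cells, of leukocytes, and of fibroblasts and endothelium. The last list summed to 20.2 to 26.8 CPM, mostly KDR.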

Additional observations from a re-analysis of the deposited data

Results flagged for a closer look

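For 6 of the 10 genes the 2 clones differed in their change from WT by the test of the difference itself (KO1 minus KO2, edgeR, n = 3 libraries per group). CCNE1 was lower in KO1 than in KO2 by a log2 difference of -0.67, with all 3 libraries of KO1 below those of KO2. E2F1 differed by -0.32 and CCNA2 by -0.23, again without overlap between the clones. CDKN1B was higher in KO1, by 0.31, and CCND1 by 0.19, both without overlap. CDK6 was higher in KO1 by 0.15, with libraries that overlapped. Of all tested genes, 48.9% differed between the clones by the same test. For KO1 minus KO2, the medians of 20 neighbours were -0.15 (CCNE1), -0.10 (E2F1), -0.09 (CCNA2), 0.10 (CCND1) and 0.12 (CDK6). Those of CDKN1B went the other way from the gene, at -0.07. With 10 neighbours the medians were -0.23, -0.21, -0.14, 0.09 and 0.20, and -0.14 for CDKN1B. The part of the neighbourhoods in these differences was not tested.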

How the results depend on the processing

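Over all alternatives, 702 of 750 values of the 10 genes kept their direction and their side of the threshold, and 21 changed sign. With the GC trend removed, 7 of the genes were called in the average of both clones (4 higher, 3 lower) in place of 4, with CCNA2 at -0.089, CCND1 at 0.076 and E2F1 at 0.31 newly called. E2F1 in KO1 turned to 0.12, CCNE2 to -0.047 in KO1 and -0.0045 on average, and CDK6 in KO2 to -0.032. Of other named genes, CDC34 turned to 0.11 in KO1 and 0.040 on average, E2F7 in KO1 to -0.031, MCM7 in KO2 to 0.0086, and between the clones PKMYT1 to -0.092 and STAT3 to 0.00085. Upper quartile scaling called CCNA2 in KO2 (0.12) and CCND1 on average (0.093) and lost CDK6 between the clones (0.12). It turned CCND1 in KO2 (0.012), CDK2 (-0.021) and CDC45 (-0.0027) between the clones and KIF11 on average (0.011). E2F1 in KO1 passed the threshold without a filter (-0.15), with at least 1 CPM in 3 libraries (-0.16) and with only the groups compared (-0.15). Values near 0 also turned for CDK6 (-0.00016) and MYBL2 (-0.0037) in KO2 without a filter, for CDK2 between the clones with at least 1 CPM (-0.0054), and for STAT3 between the clones without a filter (0.012) and with only the groups compared (0.0042). Ranked by the per-length level averaged over the 3 groups, with the longest transcript CDK2 was 3, CCND3 4, E2F1 5, RB1 6 and CDK6 7. Some neighbour medians moved with 10 neighbours in place of 20. For KO1 and KO2 they became 0.06 and 0.17 around CCNE1, and -0.14 and 0.19 around CDK2. Around E2F1 they became -0.19 and 0.09, from -0.04 in both. In KO2 they became -0.06 around CDK6 and 0.26 around CDKN1B.

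Leaving out single libraries gave 3 to 6 called genes in KO1. The ranges that follow are for those of the 10 genes that changed sign or call and for other named genes that changed sign. In KO1 they ran for CCNE2 from -0.045 to 0.13, CCNA2 from -0.17 to -0.10, CDK6 from 0.14 to 0.21, E2F1 from -0.18 to -0.11, CDKN1B from -0.038 to 0.021 and for CUL3 from -0.059 to 0.029. In KO2, they ran for CDK6 from -0.030 to 0.034, E2F1 from 0.10 to 0.21, CCND2 from -0.0060 to 0.10 and for MYBL2 from -0.045 to 0.062. On average over both clones, they ran for CDK6 from 0.061 to 0.11, E2F1 from -0.025 to 0.041, CDKN1B from -0.20 to -0.14 and for KIF11 from -0.034 to 0.030. Between the clones, they ran for CCNE2 from -0.11 to 0.045, CDK2 from -0.0017 to 0.039, CDK6 from 0.13 to 0.20, RB1 from -0.048 to 0.039, CDKN1A from -0.10 to 0.010, PKMYT1 from -0.14 to 0.19 and for STAT3 from -0.020 to 0.041. Calls of other named genes were lost for CDC34, CDC45, CDK3, CDKN1A, CHAF1A and E2F4 in KO1, AURKB and WWTR1 in KO2, CDKN3, E2F8 and RRM2 on average, and CDKN2D, E2F3, MCM7, RNF123 and WWTR1 between the clones. They were gained for CDKN3, TOP2A and TPX2 in KO1, YAP1 in KO2, RBL2 on average and E2F4 between the clones.

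Same-numbered libraries did not all deviate together (correlations from -0.53 to 0.48), nor did every library correlate best with its own number. With 3 libraries per group, each centred on its group mean, this check cannot exclude that the numbers pair the samples. The main fit took no account of a pairing. With the replicate block E2F1 in KO2 missed the threshold (0.16, adjusted p = 0.0531); no other call of the 10 genes changed, and over all tested genes 5544 were called in KO1 in place of 6178 and 8302 in KO2 in place of 8776. Protein levels and cell cycle phases were not analysed here. The cause of these shifts was not tested.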
